A study of Mus musculus with 3 samples.

Results

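In ID8 cells, 812 of the 1709 autosomal runs of CCCGGG sites (47.5%) were unmethylated throughout. A run was a chain of listed sites with gaps of 500 bp or less that held at least 3 covered sites, and a covered site had at least 10 reads in each of the 3 libraries. The level of a site was the methylated percentage of its reads, averaged over the libraries. A run was taken as unmethylated when every covered site was under 10% on chromosomes 1 to 19, so the low level of these runs is what chose them and is no finding. The 812 runs held 2908 covered sites among 3696 listed ones. They contained 12.3% of the 23638 covered autosomal sites and 26.9% of the 10800 autosomal sites under 10%, and together spanned 558.831 kb. The name holds for the covered sites: 18 of the runs also held a thinly read site that was methylated at 70% or more, as described below. The comparison groups were the other 897 autosomal runs, of which 201 were at 70% or more at every covered site and 696 were neither low nor high throughout.

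ID8 is a mouse ovarian cancer line, labelled as female surface epithelium of the ovary from strain C57BL/6. All 3 libraries came from cells at baseline, grown without any treatment in RPMI with serum and gentamicin, and there was no second group. They were called independent by the submitters, but separate cultures were not stated, so a spread or p-value over libraries covers these samples only and may be technical. The assay was DREAM (digital restriction enzyme analysis of methylation). In it, SmaI first cuts unmethylated CCCGGG and XmaI then cuts the methylated remainder, and standards of known methylation are spiked in. The end of each sequenced fragment therefore shows the state of 1 CpG in 1 molecule.

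Most CpGs of a mammalian genome carry methylation in somatic cells, and dense groups of unmethylated CpGs, the CpG islands, are the main exception. Many islands hold the promoters of genes that are active in most cell types. CxxC proteins bind unmethylated CpGs there, trimethylation of histone H3 at lysine 4 keeps the de novo methyltransferases from acting, and TET enzymes oxidise methylcytosine. Methylation typically begins in the shores, the regions of lower CpG density that flank an island. In tumour cells, some islands gain methylation over their whole length.

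The libraries held 7689526, 9190335 and 10361138 reads in replicates 1, 2 and 3, of which 16.4%, 16.9% and 17.0% fell on the covered sites of unmethylated runs. The median covered site of these runs had 325.5, 426 and 482.5 reads in replicates 1, 2 and 3, against 260, 338 and 382 reads in other autosomal runs. Adjacent sites can bound the same restriction fragment, so sites of a run share molecules and are not replicates. Exact Clopper-Pearson intervals (95%) and the limits from a count of 0 (3 reads over the reads seen) cover counting error only.

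The sequences below show what such a run looks like at a promoter. They are RefSeq promoter windows of GRCm38.p6, from 250 bases before to 50 bases after a gene's start, in the direction of transcription with CCCGGG in capitals. Each was paired with the mm9 sites of the files by its pattern of distances between CCCGGG sites, without converting coordinates. Dnmt3a and Uhrf1 are shown as genes of the methylation machinery, Kat6b as one of the 5 lowest means among unmethylated runs with 5 or more covered sites and Wnt4 for raised edges. Tet1 and Hoxa6 are shown for contrast, from runs that were not unmethylated. The windows lie at chr12:3806730-3807029 (+ strand) for Dnmt3a, chr17:56304063-56304362 (+) for Uhrf1, chr14:21499535-21499834 (+) for Kat6b, chr4:137277385-137277684 (+) for Wnt4, chr10:62887275-62887574 (− strand) for Tet1 and chr6:52208623-52208922 (−) for Hoxa6, all in GRCm38.p6.
Dnmt3a: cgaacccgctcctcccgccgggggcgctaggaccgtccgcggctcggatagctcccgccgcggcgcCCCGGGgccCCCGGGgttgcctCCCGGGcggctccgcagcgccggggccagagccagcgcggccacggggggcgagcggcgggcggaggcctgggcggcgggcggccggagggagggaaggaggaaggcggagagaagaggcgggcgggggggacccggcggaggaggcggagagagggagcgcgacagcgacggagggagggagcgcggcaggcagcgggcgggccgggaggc
Uhrf1: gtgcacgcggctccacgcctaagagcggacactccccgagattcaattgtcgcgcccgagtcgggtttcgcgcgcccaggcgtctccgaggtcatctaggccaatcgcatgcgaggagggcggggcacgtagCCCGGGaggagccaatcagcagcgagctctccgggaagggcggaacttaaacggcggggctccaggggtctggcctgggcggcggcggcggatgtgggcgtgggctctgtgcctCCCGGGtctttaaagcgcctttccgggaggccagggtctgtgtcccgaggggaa
Kat6b: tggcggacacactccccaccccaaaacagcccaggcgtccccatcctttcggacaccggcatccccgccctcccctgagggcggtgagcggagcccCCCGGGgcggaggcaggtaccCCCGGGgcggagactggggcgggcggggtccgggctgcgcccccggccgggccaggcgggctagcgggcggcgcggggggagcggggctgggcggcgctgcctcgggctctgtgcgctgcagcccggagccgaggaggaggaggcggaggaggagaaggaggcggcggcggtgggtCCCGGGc
Wnt4: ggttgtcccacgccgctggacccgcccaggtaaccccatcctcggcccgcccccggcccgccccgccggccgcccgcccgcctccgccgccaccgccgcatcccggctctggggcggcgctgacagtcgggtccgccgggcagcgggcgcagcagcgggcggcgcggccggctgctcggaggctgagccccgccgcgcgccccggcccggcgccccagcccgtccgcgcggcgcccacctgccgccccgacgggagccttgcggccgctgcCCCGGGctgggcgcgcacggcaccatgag
Tet1: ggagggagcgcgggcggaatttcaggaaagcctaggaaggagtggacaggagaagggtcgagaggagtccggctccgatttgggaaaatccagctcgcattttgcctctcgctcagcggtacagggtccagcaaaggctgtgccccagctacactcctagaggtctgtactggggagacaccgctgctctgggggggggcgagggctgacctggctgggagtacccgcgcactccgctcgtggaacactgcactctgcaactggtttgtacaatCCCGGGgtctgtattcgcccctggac
Hoxa6: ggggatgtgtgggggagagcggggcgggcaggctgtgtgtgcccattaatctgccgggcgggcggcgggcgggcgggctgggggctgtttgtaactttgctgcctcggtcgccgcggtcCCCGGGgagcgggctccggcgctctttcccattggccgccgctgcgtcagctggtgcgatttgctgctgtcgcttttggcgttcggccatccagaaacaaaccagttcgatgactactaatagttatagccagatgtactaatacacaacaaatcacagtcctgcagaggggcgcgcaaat

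Dnmt3a encodes a de novo DNA methyltransferase, and its own promoter run (chr12:3806534-3807972, mm9) was close to free of methylation. The 8 covered sites of its 11 listed ones averaged 0.103%, 0.123% and 0.147% in replicates 1, 2 and 3 (0.124% ± 0.0224, SD, n = 3), and the highest site stood at 0.366%. In the window printed above, the first capital site had 7 methylated of 1783 reads summed over libraries and the last had 3 of 1686, while the middle site had only 2 reads and was not covered. Uhrf1 encodes the protein that brings the maintenance methyltransferase to newly copied DNA. Its 3 covered sites (chr17:56443150-56443735, mm9) averaged 0.0929%, 0% and 0.0901% (0.0610% ± 0.0528, SD, n = 3). Both capital sites of the Uhrf1 window were covered and held 1 methylated read among 1089. Kat6b, a histone acetyltransferase gene, had 1 methylated read among 3383 over 5 covered sites (chr14:22318679-22319421, mm9), and 3 of these sites are the capital ones printed above. No covered site of Dnmt3a, Uhrf1 or Kat6b had more than 7 methylated reads over the 3 libraries.

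Wnt4 encodes a secreted ligand that directs development of the female reproductive tract. Its run (chr4:136833122-136833946, mm9) averaged 1.23%, 3.71% and 3.59% in replicates 1, 2 and 3 (2.84% ± 1.40, SD, n = 3), on only 345 summed reads. The capital site printed above, an edge of the run, had 1 methylated read in each library, of 27, 29 and 60 reads. The inner site had none among 181 reads and the other edge 3 among 48. For contrast, the capital site of Tet1, which encodes a methylcytosine dioxygenase, was methylated in 17 of 17, 21 of 21 and 22 of 24 reads. The 3 covered sites of the Tet1 run (chr10:62349597-62350046, mm9) averaged 82.3% ± 1.61. The capital site of Hoxa6, a homeobox gene of body patterning, was at 81.3% ± 2.86, in a run (chr6:52158327-52158946, mm9) that was high throughout and averaged 89.2% ± 1.91 (SD, n = 3 each). Both contrasts were chosen for their levels and carry no test.

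Residual methylation in the unmethylated runs was well under 1 read in 100. Methylated reads made up 0.325% (interval 0.315% to 0.335%), 0.339% (0.330% to 0.349%) and 0.350% (0.341% to 0.359%) of the reads at member sites in replicates 1, 2 and 3. The mean site level was 0.374%, 0.412% and 0.412% (0.399% ± 0.0221, SD, n = 3), beside 56.5% ± 0.241 in other autosomal runs, a gap set by the rule. By the authors' adjusted percent, which raises the odds of methylation by a factor for each library, the same sites averaged 0.715% ± 0.0167. The distribution was skewed: the median site was at 0.115%, the upper quartile at 0.323%, the 90th percentile at 0.863% and the highest site at 9.43%. Of the 2908 sites, 2655 (91.3%) were under 1%, and in 620 runs (76.4%) every site was under 1%. No methylated read was seen at 1014 sites (34.9%), which had a median of 328 summed reads, a depth that allows a level of up to 0.915%. In 47 runs (5.79%) no site had a methylated read, with a median of 1432 reads in the run and an upper limit of 0.209%.

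A small set of sites carried much of the residual signal. The 123 sites at 2% or more (4.23% of sites, in 101 runs) held 39.5% of the 15530 methylated reads, and the 39 sites at 5% or more (1.34%, in 35 runs) held 18.6%. The signal of such sites carried over to a library whose methylated reads had no part in the choice. The read totals of that library still counted for coverage. When both runs and sites were chosen on 2 libraries, sites at 2% or more averaged 3.91% ± 0.206 in the library left out, and 73.6% ± 2.03 of them were at 1% or more there. Sites above 0 and under 2% averaged 0.308% ± 0.0174 in the library left out, and sites at 0 averaged 0.172% ± 0.0356 (SD over 3 left-out libraries). Over the 2908 sites, levels in pairs of libraries had a Pearson r of 0.613, 0.693 and 0.647, given as a description, since the sites share fragments and the rule bounds their range.

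Membership carried over to a library whose methylated reads were left out of the rule, though its read totals still counted for coverage. When runs were chosen on 2 libraries, 98.6%, 98.6% and 99.0% of the 814, 814 and 815 chosen runs were under 10% at every covered site in replicates 1, 2 and 3 in turn (98.8% ± 0.213, SD, n = 3). Of the runs not chosen, 0.894%, 0.559% and 0.895% were under 10% throughout in the library left out (0.782% ± 0.194). No member site was called different between any pair of libraries by the two-sided Fisher's exact test of its read counts (Benjamini-Hochberg over all 24112 covered sites, adjusted p under 0.05 and at least 20 percentage points). The call rate over all covered sites was 0.00415%, 0.00415% and 0% for replicates 2 against 1, 3 against 1 and 3 against 2. The largest difference at a member site was 15.4 points, so the minimum of 20 points could not be reached. Without that minimum, 0 member sites were called, beside 0.0415%, 0.0373% and 0.0249% of all covered sites. The rule bounds these counts, since sites near 0 in the same 3 libraries can differ only little, so nothing is read from their lying below the rate over all covered sites. At an unadjusted p under 0.05 the test gave 16, 19 and 21 member sites (0.550%, 0.653% and 0.722%), beside 3.02%, 3% and 2.84% of all covered sites. A chi-square test divided by the excess spread between libraries kept the minimum of 20 points, so its count of 0 member sites was set in advance. It called 0 of all covered sites in each pair.

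The runs at the limit of 10% were few. By their highest site, 620 runs lay under 1%, 91 from 1% to under 2%, 66 from 2% to under 5% and 35 from 5% to under 10%. Beyond the limit, 21 runs had their highest site from 10% to under 15%, 16 from 15% to under 20%, 154 from 20% to under 70% and 706 at 70% or more. Just inside, the highest sites stood at 9.31% in the run chr5:118351007-118351358, 9.41% in chr19:55818342-55818872 and 9.43% in chr19:46403136-46403541 (mm9). Just outside, they stood at 10.1% in chr5:121457380-121457850, 10.5% in chr6:47997611-47999398 and 10.7% in chr2:167513928-167514278 (mm9). Of these 6 sites, 5 were the outermost covered site of their run. Outermost sites are common in short runs, at 1624 of the 2908 covered sites of unmethylated runs, so nothing is read from the 5.

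Edge sites, the first and last covered site of each run, had a higher mean level than inner sites. Averaged over runs, edges stood at 0.424%, 0.460% and 0.469% in replicates 1, 2 and 3 (0.451% ± 0.0239), and inner sites at 0.331%, 0.368% and 0.362% (0.353% ± 0.0198). The difference was 0.0975 percentage points ± 0.00799 (SD, n = 3) and had this direction in 3 of 3 libraries. It did not hold for the typical site: the median was 0.0975% over 1624 edge sites and 0.127% over 1284 inner sites, and 39.7% of edge sites but 28.8% of inner sites had no methylated read. The upper tail went the other way, with 5.17% of edge sites and 3.04% of inner sites at 2% or more, and 30 edge sites and 9 inner sites at 5% or more. Edges were higher than inner sites in 420 runs, lower in 345 and equal in 47. Edges exceeded the inner mean by over 1 point in 56 runs, while the inner mean exceeded the edges by over 1 point in 32 runs. The largest difference of all was of the second kind: in the run chr9:81526432-81527040 (mm9) the inner site stood at 10.99%, 7.84% and 6.52% in replicates 1, 2 and 3 (27 of 331 reads), between edges with no methylated read among 310 and 1391. In chr5:118351007-118351358 the inner site was at 9.31% (201 of 2177 reads) and the edges averaged 1.49%. An edge at 2% or more was found in 79 runs, and in 5 of these both edges were at that level. With only 5.17% of edge sites at 2% or more, few runs with both would be seen anyway. No preference for a single side is read from these counts. Of the summed reads, 0.405% were methylated at edge sites and 0.279% at inner sites. Edge sites had a median of 1036 summed reads and inner sites 1559.5. The part of this depth in the difference, in the medians and in the shares with no methylated read was not tested. The size of the difference ran from 0.0406 points with a level limit of 5% to 0.213 points in runs with 5 or more covered sites, and it kept its sign when the processing was changed. It rested on few runs, however: without the 10 runs of largest positive difference it was 0.0440 points and without the 50 largest positive ones −0.0657 points, while without the 50 largest in either direction it was 0.0539 points.

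**Figure D1:**
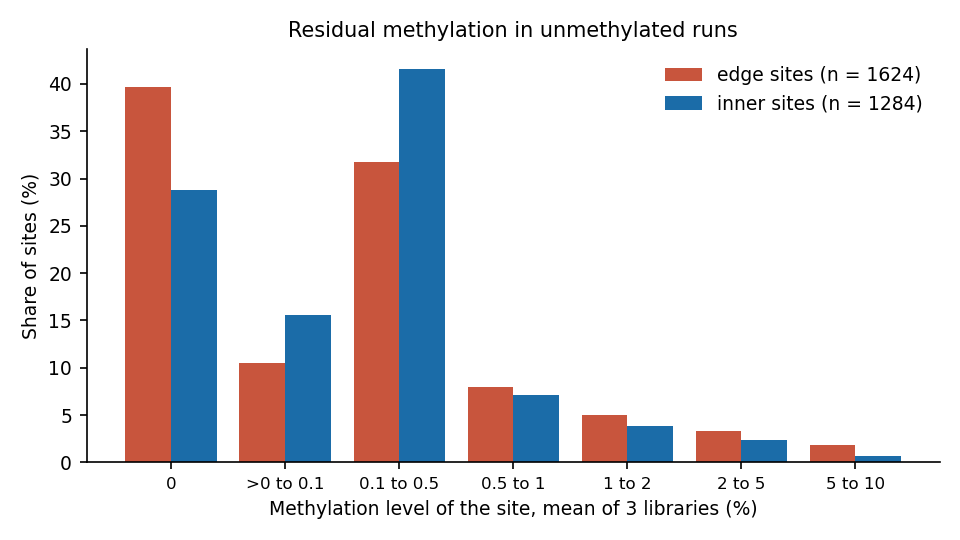
Share of sites (%, vertical axis) by methylation level (mean of 3 libraries, bins of unequal width along the horizontal axis) for 1624 edge sites (red, left bars) and 1284 inner sites (blue, right bars) of the 812 unmethylated runs. Edge sites had the larger share at 0 (39.7% against 28.8%) and also at 5% to under 10% (1.85% against 0.701%), and inner sites the larger share from above 0 to 0.5%.

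The mean level was also lower in the classes of sites further from the end of the run. It was 0.485% ± 0.0178 at the 1248 covered sites that were the outermost listed site, 0.437% ± 0.119 at up to 100 bp inside, 0.340% ± 0.0226 for 100 to 250 bp, 0.308% ± 0.0210 for 250 to 500 bp and 0.195% ± 0.050 at the 75 sites 500 bp or more inside (SD, n = 3). The median level had no such order and stayed between 0.0851% and 0.119% in all 5 classes. The classes hold different runs, since a site 500 bp or more inside needs a run of at least 1000 bp. Member sites averaged 0.344% in runs of that length and 0.446% in runs under 400 bp. Depth also differed, with medians of 987, 1021, 965, 2224 and 2099 summed reads from the end inwards. A fall within single runs was not tested. The mean edge level was higher where the next covered site outside the run was methylated. The 21 edges with a neighbour at 70% or more within 2 kb averaged 1.11% ± 0.198, the 17 with a neighbour from 10% to under 70% averaged 1.07% ± 0.231, and the 142 with a neighbour under 10% averaged 0.311% ± 0.0828. In the first class 4 edges were at 2% or more, in the second 3 and in the third 2. The median edges were closer, at 0.247%, 0.193% and 0.129% in these classes, so the means rested on few edges.

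Single runs show how abrupt a step at an edge could be. The largest edge minus inner difference, 6.92 points, was in the run chr11:62946041-62946586 (mm9), where the edges stood at 6.59% ± 1.73 and 8.42% ± 3.75 and the inner site at 0.581% ± 0.330 (SD, n = 3). It was followed by chr12:50484244-50485130 at 5.10 points, chr19:46403136-46403541 at 4.42, chr15:65618765-65619226 at 4.30 and Wnt4 at 4.27. The edges of the first held 99 methylated of 1502 summed reads and 15 of 192, and the inner site 9 of 1533. Among runs with 5 or more covered sites, those of Chd4, Gnas and Mturn were named for their high means. Chd4 encodes the ATPase of the NuRD chromatin remodelling complex. The first site of its run (chr6:125045876-125046746) was at 10%, 4.39% and 8.89% in replicates 1, 2 and 3, and the next site, at 1.14%, 0% and 0.730%. The next 3 sites of Chd4 had no methylated read among 2479, 421 and 1167 reads. Gnas encodes the stimulatory G protein alpha subunit and lies in an imprinted locus. Its first site, with only 168 summed reads, was at 5.13%, 14.7% and 3.70%, and the 4 inner sites of the run (chr2:174154841-174156106) lay between 0% and 0.335%. Mturn did not follow this pattern: besides edges at 1.26% ± 0.630 and 4.25% ± 0.514 it held an inner site at 5.12% ± 4.04, on 199 reads, in the run chr6:54631362-54632372. It had the highest mean of the runs with 5 or more covered sites, 2.17% ± 0.794. Over its 5 sites, 129 of 8351 reads were methylated.

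Most of the runs with the most covered sites had few methylated reads over their whole length. The run with the most covered sites, 9, was also the longest, at 2319 bp (chr5:143577870-143580189), and had 47 methylated of 31817 reads. The run chr10:17775277-17776494 stood apart, with 118 methylated of 13365 reads over 7 covered sites (0.852% ± 0.297). Of these, 77 fell on an edge at 2.48% ± 0.622 and 23 on an inner site at 2.10% ± 0.607. Ulk2, a kinase gene of autophagy initiation, had 8 covered sites in 1230 bp (chr11:61667647-61668877) at a mean of 0.157%, 0.284% and 0.601% in replicates 1, 2 and 3, and its inner sites averaged more (0.417%) than its edges (0.137%). The shared run of Camta1, a transcription factor gene, and 9230110K08Rik (chr4:151235188-151236948) held 16 methylated of 14905 reads over 8 sites. Rdx, which encodes radixin, a linker of actin to the membrane, had 23 of 9739 over 7 sites, and Drap1, a transcriptional corepressor gene that shares its run with AI837181, had 9 of 11682 over 7. Map3k1, a kinase gene of the MAP kinase cascade, shared its run with Gm15327 and had 15 of 8136 over 7. Sp3, a transcription factor gene whose product binds GC boxes, lay in a run of 2111 bp (chr2:72816805-72818916) with 18 methylated of 16246 reads. Its 6 covered sites all lay between 0.0615% and 0.226%. Irf2bpl, at 9 of 6792 reads in 1983 bp, and Gm52395, at 18 of 9595 in 2023 bp, were the other long runs with a paired gene.

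In shape, the unmethylated runs were close to the others. Their median length was 639.5 bp (quartiles 470.5 and 839, range 153 to 2319), against 618 bp in other autosomal runs. They held a median of 4 listed sites, the same number as the others, with at most 12 listed and 9 covered. Their median gap between neighbouring sites was 172 bp, against 195 bp in the others. A smaller share of their listed sites was covered, 78.7% against 86.2%. The share of runs that were unmethylated depended on the number of listed sites: it was 36.3% of the 658 runs with 3 listed sites, 52.8% with 4, 55.1% with 5, 58.5% with 6 and 55.3% with 7 or more. By covered sites it was 45.8% with 3, 54.7% with 4, 43.9% with 5, 45.5% with 6 and 38.7% of the 31 runs with 7 or more, with no steady order. By length it was 46.0% under 400 bp and 52.4% of the 212 runs of 1000 bp or more. Within the 812 runs, the mean level was by rank hardly related to length (Spearman's rho −0.04), listed sites (−0.08), covered sites (0.04) or summed reads (−0.02), described here across runs of 1 genome. The mean over member sites did differ by length. It was 0.446% in runs under 400 bp, 0.417% from 400 bp, 0.395% from 600 bp, 0.403% from 800 bp and 0.344% from 1000 bp.

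Unmethylated runs were found on all 19 autosomes. Their number ran from 20 on chromosome 18 to 69 on chromosome 2, and their share of the runs from 36.6% on chromosome 7 (37 of 101) and 40.6% on chromosome 5 (52 of 128) to 60.4% on chromosome 16 (29 of 48) and 61.2% on chromosome 3 (41 of 67). The mean level of member sites ran from 0.207% ± 0.0432 on chromosome 14 to 0.554% ± 0.0577 on chromosome 19 (SD, n = 3). Chromosome 6, at 0.543% ± 0.0178, and chromosome 11, at 0.518% ± 0.0309, differed from chromosome 19 by less than its SD. Neighbouring unmethylated runs lay a median of 1479 kb apart, and 10 had the next within 10 kb. Of 421 windows of 5 Mb with any run, 348 held an unmethylated run. The fullest window, chromosome 4 from 130 to 135 Mb, held 12 of them among 19 runs. The longest stretch without any was 30.1 Mb on chromosome 1. Each chromosome is 1 value from 1 line, so no test was made between them.

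**Figure D2:**
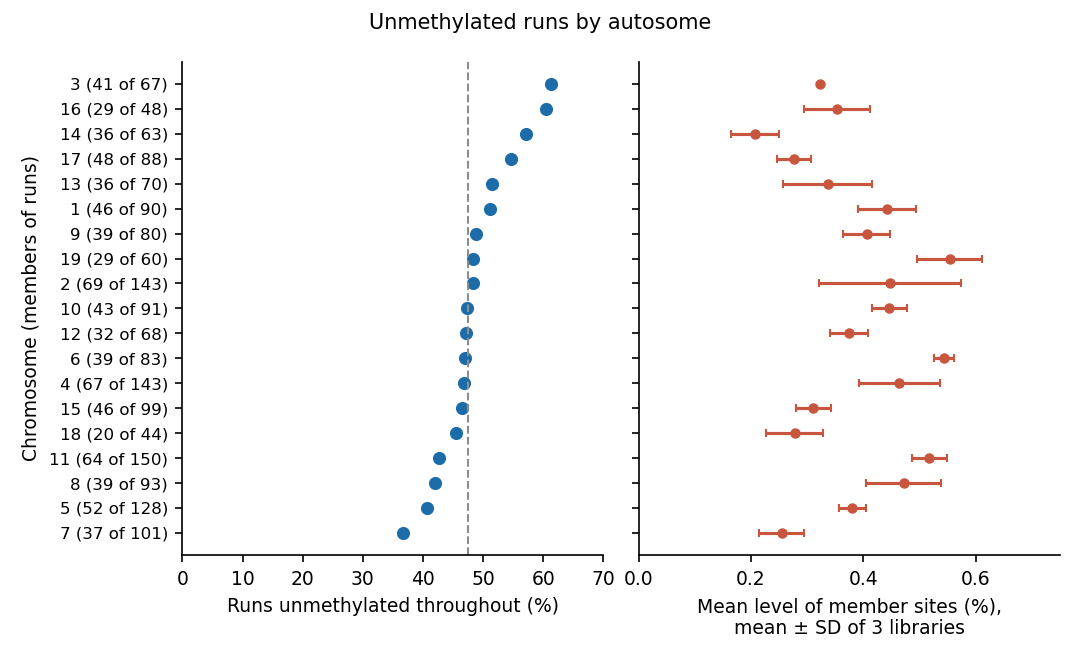
Share of runs that were unmethylated throughout (%, left panel, dashed line at the overall 47.5%) and mean level of member sites (%, right panel, mean and SD of 3 libraries) for the 19 autosomes, ordered by share, with the numbers of unmethylated and all runs in parentheses. Chromosomes 3 and 16 had the highest shares and chromosome 7 the lowest, and the order of the levels on the right does not follow the order on the left.

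Listed sites with under 10 reads in some library were left out of the rule and give a further reading of the same runs. The unmethylated runs held 788 such sites, of which 155 had no read at all. In them, 147 of 1605, 170 of 1651 and 253 of 2606 reads were methylated in replicates 1, 2 and 3, which is 9.16%, 10.3% and 9.71% (9.72% ± 0.569, SD, n = 3). The like sites of other autosomal runs were at 58.1%, 59.7% and 57.9% (58.6% ± 0.987), and those of runs high throughout at 83.2% ± 2.6. The difference between unmethylated and other runs was −48.8 points ± 0.601, lower in 3 of 3 libraries, with p = 0.25 by the exact sign-flip test (two-sided), the smallest p that 3 libraries allow. Sparsely read sites in unmethylated runs were thus low as a class, but their 9.72% stood far above the 0.399% of the covered sites beside them.

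Sites with 10 or more summed reads show how this mean is composed. Of 190 such sites in unmethylated runs, 146 (76.8%) were under 10%, including 127 with no methylated read, 25 were partial and 19 (10%) were at 70% or more. Of 239 such sites in other runs, 45 (18.8%) were under 10%, 71 were partial and 123 (51.5%) were at 70% or more. The 19 highly methylated sites lay in 18 unmethylated runs, 15 of them outside the outermost covered sites and 4 between covered sites. At position 134942469 of chromosome 1 (mm9), 36 of 44 reads were methylated, and the nearest covered site, 269 bp away, had no methylated read among 2941. The site at 125202500 on chromosome 8 lay between covered sites and was methylated in 35 of 39 reads, 171 bp from a site with none among 445. At position 97913814 of chromosome 11 all 22 of 22 reads were methylated, 31 bp from a site at 0.300% with 4664 reads. Read shares were 6.80% for sparse sites between covered sites and 11.5% for those outside them. If the 190 sites with 10 or more summed reads counted in the rule, 771 of the 812 runs would still be unmethylated throughout. Sparse sites with fewer summed reads were not applied in this count.

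**Figure D3:**
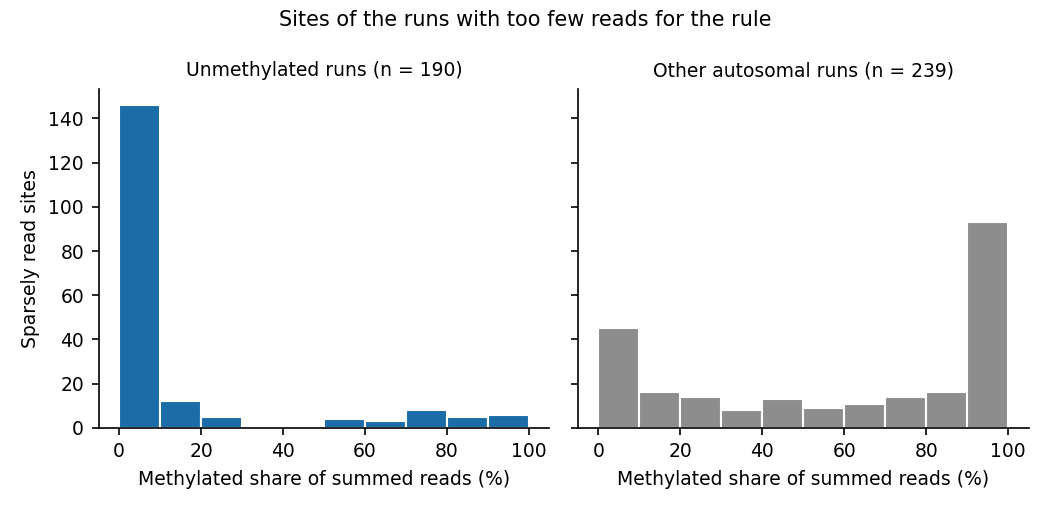
Number of sparsely read sites with 10 or more summed reads (vertical axis) by the methylated share of their summed reads (%, horizontal axis, bins of 10 points), for 190 sites in unmethylated runs (left) and 239 in other autosomal runs (right). In unmethylated runs 146 sites fell in the lowest bin and 19 lay at 70% or more, while 123 of the 239 sites in other runs lay at 70% or more.

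The nearest covered site outside a run was mostly low where it lay close by and mostly high where it lay further off. Each run end enters only by its nearest site, so the distance classes hold different run ends. They are not a profile along the same flanks. By the gap limit, a flanking site is more than 500 bp away, and only 228 of the 1624 ends of unmethylated runs (14.0%) had a covered site within 5 kb. The nearest flanking sites averaged 12.6% ± 0.171 where they lay 500 to 1000 bp out (154 sites), 25.7% ± 0.337 for 1000 to 2000 bp (26 sites) and 69.5% ± 0.248 for 2000 to 5000 bp (48 sites), each SD over 3 libraries. The class means hide a split, since the median flanking site was at 0.142%, 0.428% and 97.8% at these distances. At 500 to 1000 bp, 123 of the 154 sites were under 10% and 15 were at 70% or more. Flanks of runs high throughout did not have higher means in the further classes: they averaged 69.2% ± 1.50, 66.8% ± 1.12 and 46.2% ± 0.649 at the same distances. Flanks of the remaining runs averaged 44.7% ± 0.829, 49.3% ± 0.349 and 59.0% ± 0.185. Of the 228 flanking sites, 16 belonged to another unmethylated run and 2 more to other runs, and so had been used by the rule. Without these 18, the means were 13.6% ± 0.164 (143 sites), 31.8% ± 0.452 (21 sites) and 72.3% ± 0.286 (46 sites) in the 3 distance classes. Over all distances the flanks of unmethylated runs averaged 26.1% ± 0.123 with all sites, a mean that the gap limit largely sets: it was 12.5% with a limit of 250 bp and 55.5% with 1000 bp. The SDs cover the libraries and not the spread over sites, and the values describe the few run ends that had a neighbour.

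**Figure D4:**
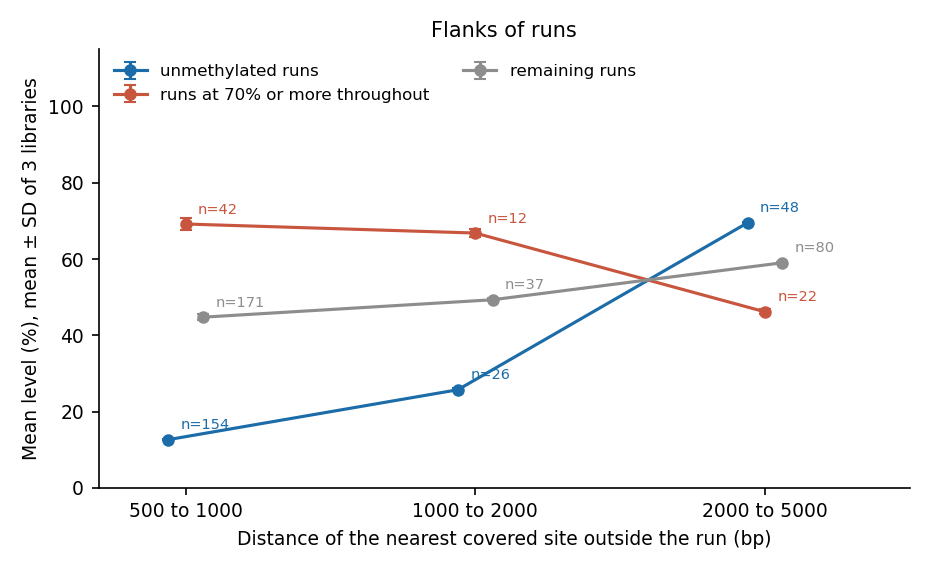
Mean level of the nearest covered site outside a run (%, vertical axis, mean and SD of 3 libraries) by its distance from the run (horizontal axis, 3 classes), for unmethylated runs (blue), runs at 70% or more throughout (red) and the remaining runs (grey), with the number of flanking sites beside each point. The blue line runs from 12.6% to 69.5%, while the red line runs from 69.2% to 46.2%. Each run end enters only by its nearest site, so the points of a line come from different run ends.

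Promoter windows were paired with 326 of the 812 unmethylated runs (40.1%) and with 207 of the 897 other autosomal runs (23.1%). Only windows that contain CCCGGG can be paired, so an unpaired run may still hold a promoter. The paired unmethylated runs held the starts of 382 genes, of which 328 (85.9%) were protein coding, and 56 runs had starts on both strands. The 426 windows in unmethylated runs had a median GC content of 72%, 33 CG dinucleotides in 300 bases and an observed to expected CG ratio of 0.885. The 247 windows in other runs had 70.7%, 29 and 0.818, the 41 of these in runs high throughout 74.7%, 39 and 0.923, and all 31396 autosomal windows 53%, 7 and 0.389, of which 13.8% contain CCCGGG. Windows in either kind of run hold CCCGGG by construction, which most windows do not. The GC box GGGCGG, searched on both strands with overlaps with CCCGGG allowed, was in 89.7% of windows in unmethylated runs, 80.2% in other runs and 36.0% of all. CCAAT was in 26.1%, 24.3% and 37.3%, TATAAA in 3.29%, 4.45% and 13.6%, and CACGTG in 10.1%, 7.29% and 7.14% of these 3 sets. In the 41 windows of runs high throughout, the shares were 85.4% for GGGCGG, 29.3% for CCAAT, 2.44% for TATAAA and 9.76% for CACGTG. The shares are thus not particular to unmethylated runs. The matches describe letters in a window, and windows of a bidirectional run overlap or lie close together.

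Around the transcription start the mean residual level was lowest just before and after it. In the 236 unmethylated runs paired with a single window, the covered sites reached from a median of 173.5 bp before to 375 bp after the start, and 177 runs (75%) had covered sites on both sides. The mean was 0.497% ± 0.103 at 500 bp or more upstream, 0.520% ± 0.0290 from 500 to 250 bp upstream and 0.265% ± 0.0207 in the last 250 bp before the start. Downstream it was 0.302% ± 0.0528 up to 250 bp, 0.422% ± 0.0656 from 250 to 500 bp and 0.415% ± 0.0630 beyond (SD, n = 3). Sites at 2% or more made up 7.69% of sites from 500 to 250 bp upstream, 2.30% in the last 250 bp and 1.92% in the first 250 bp downstream. The median site stayed between 0.0846% and 0.191% in all 6 classes and did not keep the order of the means. It was at 0.109% in the first 250 bp downstream and at 0.0953% from 500 to 250 bp upstream. Distance from the start was not separated from position within the run.

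**Figure D5:**
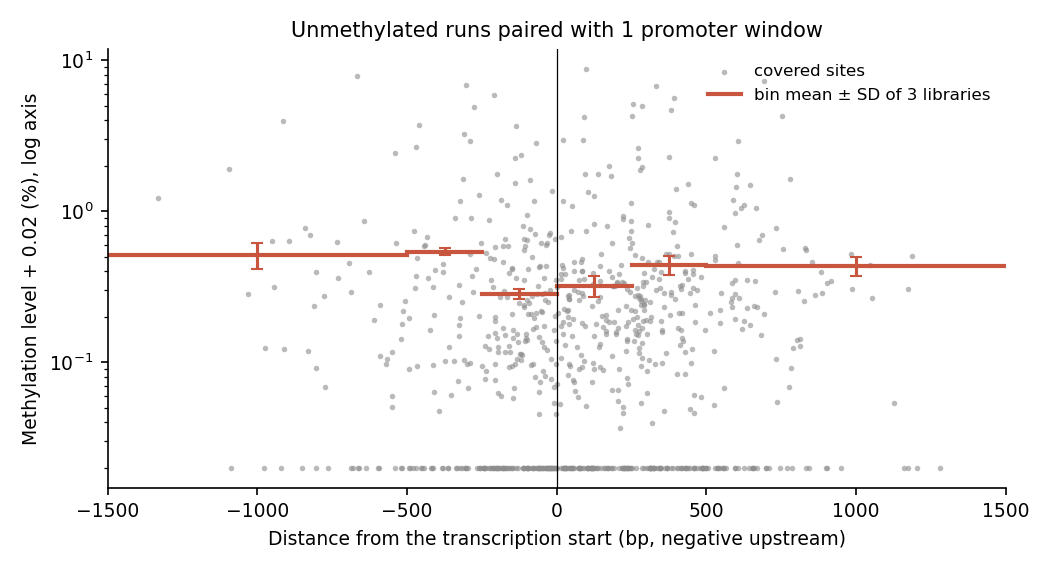
Methylation level of 845 covered sites (grey points, mean of 3 libraries, %, on a log axis after adding 0.02 so that sites at 0 appear at the bottom) by distance from the transcription start (bp, negative upstream) in the 236 unmethylated runs paired with a single promoter window; 2 points lie outside the axis. Red bars give the mean and SD of the 3 libraries in 6 distance classes; the 2 classes next to the start are the lowest, at 0.265% and 0.302%.

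Gene lists were then read against the pairing. Of all 2981 paired genes, 382 (12.8%) lay in unmethylated runs and 227 (7.61%) in other runs with 3 covered sites, and the rest outside such runs. Of 6 paired genes of the DNA methylation machinery, Dnmt3a and Uhrf1 lay in unmethylated runs and Dnmt3b and Tet1 in other runs. Dnmt3b, which encodes the other de novo methyltransferase, averaged 31.3% ± 1.98 over 4 covered sites that ran from 0% to 73.8%. Tet3, a dioxygenase gene of the same family as Tet1, had only 2 covered sites, at a mean of 0.179% ± 0.125. Of 11 paired genes on the ribosomal list, Rpl36al, which encodes a ribosomal protein, lay in an unmethylated run at 0.170% ± 0.0855, as did Rps6ka1 at 0.176% ± 0.00939, a kinase gene that only its symbol puts on this list. The other 9 lay outside runs with 3 covered sites. Of these, Rpl23, Rpl37 and Rpl9 stood at 0% at their covered sites. Rps13 averaged 0.276%, and Rps27l stood at 0.271% and 0% at separate places. Psma7, a proteasome subunit gene, was in an unmethylated run at 0.291% ± 0.0525, and the other 5 paired proteasome genes were outside such runs. Of these, Psmc6 averaged 0.149% and Psmd11 stood at 0.136% at their covered sites. Of 16 paired homeobox genes, Six5 lay in an unmethylated run at 0.226% ± 0.0812, while Hoxa6 (89.2% ± 1.91) and Pax2 (53.9% ± 1.11) lay in other runs and 13 elsewhere (SD, n = 3 each). Among the 13 elsewhere, Hoxa2, Hoxd4 and Nkx6-1 stood at 85.7%, 98.0% and 100%, and Lhx3, Hoxd9 and Hoxa9 averaged 51.1%, 51.4% and 28.4%. Kdm2b, the single paired CxxC gene, had no run with 3 covered sites, and averaged 0.0243% and 0.181% at separate places. No gene of the mismatch repair or Polycomb lists was paired. The lists count few genes and no share was tested.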

How the data were processed

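DREAM libraries of 3 samples of untreated ID8 cells were analysed as 1 group. The authors deposited, for each library, counts of methylated, unmethylated and total reads at 173449 listed CCCGGG sites, which are raw, and 2 percent columns, raw and adjusted. A table of summed counts was not used here. Per the submitters' processing notes, Bowtie2 and SAMtools and the builds mm9 and rn4 were used; the sources used here give neither versions nor which base of a site its position marks. Coordinates of sites and runs are mm9 as deposited.

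Levels were computed from the counts with Python 3.11.15, numpy 2.4.6, pandas 2.3.3 and scipy 1.17.1. Figures used matplotlib 3.10.9. Of the listed sites, 24112 had at least 10 reads in every library and were kept as covered. Site levels, edges and lengths are descriptions, since the rule used all 3 libraries. Readings that the rule did not use came from sparsely read sites and from flanking sites outside any run with 3 covered sites. A further reading came from the methylated reads of a library left out of the choice of runs. The coverage minimum was still applied to all 3 libraries. The pairwise test was Fisher's exact test per site with Benjamini-Hochberg adjustment, checked on simulated data. Members and gene lists were chosen with earlier results of these data known.

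No mm9 annotation was used. Genes were named by a method chosen after the files were seen, from the distances between CCCGGG sites in RefSeq promoter windows of GRCm38.p6. Each pattern was extended to neighbouring windows, up to 500 kb away, until it held at least 3 sites and matched at most 1 place. To be paired, it had to recur once among the listed sites of the same chromosome. Of 4325 windows with the site, 3307 (76.5%) were paired. For 3233 of these (97.8%) the shift between builds was within 1 kb of that of a neighbouring pair, and 9 also matched another autosome. The plan had allowed gene names only with an annotation of the files' build. Named runs were the 10 with the most covered sites, the 5 longest, the 5 with the highest and the 5 with the lowest mean among those with 5 or more covered sites, the 5 with the largest edge minus inner difference and 3 on either side of the limit. Of these, the text gives those with a paired gene and a few others. Base composition of whole runs, CpG islands and repeats were not analysed here.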

Additional observations from a re-analysis of the deposited data

Results flagged for a closer look

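Sparsely read sites, which the rule for unmethylated runs does not use, carried a methylation signal. Summed over the libraries, 9.72% of their 5862 reads inside unmethylated runs were methylated, against 58.5% of 6053 reads at the like sites of other autosomal runs. The series has no control sample to set this share against. Of the 190 sites with 10 or more summed reads, 19 at 70% or more sat in 18 runs, at a median of 269 bp and at least 10 bp from a covered site. The closest, at 64359724 on chromosome 5 (mm9), had 14 methylated reads of 15 and lay 10 bp from a site at 0.0807% with 1199 reads. Why these sites were read so thinly was not tested.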

How the results depend on the processing

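The number of unmethylated runs was 812 and stayed between 571 (at least 50 reads) and 931 (gaps up to 1000 bp) under the other settings, except at a gap limit of 250 bp, which left 412 of 748 runs. It was 782 by the authors' adjusted percent, 771 with sparse sites of 10 or more summed reads counted, and 814 to 815 without each replicate. The mean residual level of 0.399% became 0.437% with a gap limit of 250 bp, 0.294% with a level limit of 5%, 0.631% with a level limit of 20% and 0.550% by the authors' adjusted percent with members chosen anew. It was 0.397% to 0.418% without each replicate.

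The edge minus inner difference of 0.0975 points was positive under each change of the processing, but varied in size and rested on few runs. It was 0.0672 with at least 50 reads, 0.0590 with at least 5 reads, 0.0586 with a gap limit of 250 bp, 0.119 with 1000 bp, 0.0406 with a level limit of 5%, 0.201 with 20%, 0.0831 by the adjusted percent, 0.114 from summed counts and 0.213 in runs with 5 or more covered sites. Without each replicate it was 0.0986 to 0.125. Without the 10 runs of largest positive difference it was 0.0440, and without 50 such runs it turned to −0.0657, as leaving out 1 tail lowers a mean. Without the 50 runs of largest difference in either direction it was 0.0539.

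The mean level of flanking sites of 26.1% became 22.3% with at least 50 reads, 29.8% with at least 5, 12.5% with a gap limit of 250 bp, 55.5% with 1000 bp, where no flank can be nearer than the limit, 24.2% with a level limit of 5%, 26.3% with 20% and 25.8% by the adjusted percent, 28.3% without flanking sites in runs that the rule assessed, and 25.9% to 26.2% without each replicate. The share of runs low in the left-out library was 99.4% with at least 50 reads, against 98.8%. The sparse site difference lay between −56.8 and −43.0 points in all settings, and 0 member sites were called between libraries in all. Pairing with spans up to 200 kb kept 230 of the 326 paired runs. The settings for sparse sites counted in the rule, for the span, for runs left out by their difference, for flanking sites in other runs and for replicates left out of the pairwise test were chosen after seeing the data. For named runs, the mean stayed within its SD in 29 of 29 from summed counts, in 20 of 28 with at least 50 reads and in 10 of 29 by the adjusted percent, which was higher in all 29.

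No paired analysis was possible because the series has 1 group. With 1 line and no second group, the values describe these 3 libraries. Levels under about 1% rest on a few methylated reads at most sites and were not separated from the error of the assay, since the spiked standards were not analysed here. Only CCCGGG sites are read, and 14.0% of run ends had a covered neighbour, so the true borders of the unmethylated stretches are not located.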
